A study of Mus musculus with 8 samples.

Results

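The 9 genes described here encode complement components (C1qa, C1qb, C1qc, C4b and C3), a complement receptor (C3ar1) and complement regulators (Serping1, Cd55 and Cd59a). They are 9 of the 55335 genes in the count table, matched by symbol through the GENCODE M21 annotation, and all 9 passed the filter on low counts that left 17618 genes for testing. They were listed with earlier results of the same comparison known, among them lower levels of Serping1 and Cd55 after allergen. The differences between the groups for these 9 genes are therefore a description and no independent test. The RNA came from ganglia of the vagus nerve, which hold the cell bodies of sensory neurons of the airways and other organs, in wild-type mice challenged with saline or with HDM (commonly short for house dust mite, a source of airway allergens). Ganglia were collected 1.5 h after challenge 4, with 4 libraries in each group, each from 6 to 8 ganglia pooled from 3 to 4 mice. The labels give no strain, sex or age, and each of the 4 numbered batches holds 1 library of each group.

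Complement is a cascade of plasma and tissue proteins that tags targets for uptake and can end in a pore in the target's membrane. The classical route starts when C1q, built from chains A, B and C, binds and activates its attached proteases C1r and C1s, which cleave C4 and C2 into an enzyme that cleaves C3. Host cells are protected by the C1 inhibitor (Serping1), which inactivates C1r and C1s, by CD55, which speeds the decay of the C3-cleaving enzymes, and by CD59, which blocks assembly of the pore. In nervous tissue C1q is known mainly as a product of macrophages and microglia.

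Library totals ran from 23952130 to 26670634 counts in HDM and from 26868337 to 31281281 in saline. Levels are CPM, counts divided by the library total and put on a common scale, with totals adjusted by TMM, a method that evens out composition between libraries. In the fit over all genes (edgeR quasi-likelihood test), 244 of 17618 genes, 1.38%, had an adjusted p under 0.05, 28 of them (0.159%) lower in HDM. Vagal sensory neurons were present by their markers: all 12 listed genes passed the filter, among them Scn10a, a sodium channel of sensory neurons, and P2rx2, an ATP receptor of vagal afferents. Sympathetic neuron markers summed to 803 CPM in HDM replicate 4, against 270 to 298 CPM in the other HDM libraries and 123 to 355 CPM in saline. Red blood cell markers summed to 247 CPM in saline replicate 1 and 45.6 to 77.7 CPM elsewhere, with 5 of 5 negative (median −0.89) and none called. Hepatocyte markers, the liver being the main source of plasma complement, summed to at most 2.19 CPM with Fgb at 0. In these bulk samples fewer cells of a type and less RNA per cell cannot be told apart.

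Among the 9 genes, length-scaled levels, in CPM per kb of annotated exon, separated Cd55, Serping1 and Cd59a from the components. This does not hold for regulators as a class. Outside the 9, regulators lay above and below C4b, among them Clu at 117 and Cr1l at 5.05 CPM per kb. Cd55 was at 70.5 ± 8.07 and Serping1 at 69.3 ± 7.92 CPM per kb (SD over 8 libraries), and their ranges overlapped. Cd59a followed at 51.6 ± 3.86 CPM per kb, below the whole range of Serping1. C4b, at 16.3 ± 2.07 CPM per kb, was the highest component, 3.16-fold under Cd59a. The C1q chains stood at 10.1 ± 2.08 for C1qa, 8.82 ± 1.90 for C1qb and 4.92 ± 0.91 CPM per kb for C1qc, and neighbouring chains overlapped. C3, the central component, was at 0.64 ± 0.31 CPM per kb and its receptor gene C3ar1 at 0.45 ± 0.086, and these ranges overlapped as well. C3 lay 7.63-fold under C1qc. The merged exons of C1qc span 1931 bp while its longest transcript has 1203 bp. With longest transcripts as lengths C1qc had 7.89 ± 1.47 CPM per kb, and the order of the 9 genes was the same.

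**Figure D1:**
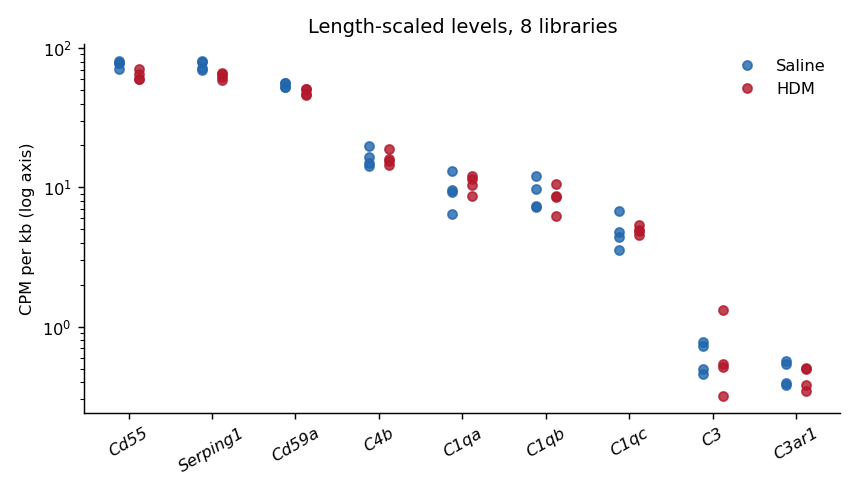
Level of each of the 9 genes in CPM per kb (log axis) in the 4 saline (blue) and 4 HDM (red) libraries, ordered by the mean. Cd55, Serping1 and Cd59a lie between 46.0 and 81.1 CPM per kb, and C3 and C3ar1 between 0.32 and 1.32.

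The levels of Serping1 and Cd55 in HDM were lower by a log2 fold change of −0.26 each, and that of Cd59a differed by −0.17 without passing the threshold. These 3 regulators each had all 4 HDM libraries below all 4 saline libraries, which held for 4.39% of all tested genes in this direction. Of the 9 genes 2 had an adjusted p under 0.05, Serping1 and Cd55, both lower, beside 0.159% of all genes. With the replicate block 2 of 9 were again lower, beside 1.03% of all genes lower and 4.05% in either direction. None of the 9 was called higher (edgeR, 3 of 9 at an unadjusted p under 0.05, all lower), beside 1.23% of all genes, and none had its HDM range above the saline range, beside 6.25%. Nothing is read from these counts, since the calls were known when the list was made. Both calls were lost without HDM replicate 1, 2 or 4, without saline replicate 2 or 3, and after a correction for GC content. After that correction 0 of 17618 genes were called at all. The log2 fold change was then −0.29 for Serping1, farther from 0 than in the reported fit, and −0.19 for Cd55, nearer to 0. The genes on either side of the threshold were Cd55, with an adjusted p of 0.0445, and Cd59a, with 0.0955 (edgeR).

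Serping1 (ENSMUSG00000023224, GRCm38 chromosome 2, 84765387 to 84775444, minus strand, 8 merged exons) had 136, 144, 155 and 150.3 CPM in HDM replicates 1 to 4. The saline libraries held 188, 184, 168 and 163 CPM. The highest HDM library thus lay under the lowest saline library, by a small margin. Means were 146 ± 8.24 CPM in HDM and 176 ± 12.2 CPM in saline (SD, n = 4 each). The log2 fold change was −0.26 (SE 0.056, edgeR adjusted p = 0.0390, and −0.29 with 0.0736 after the GC correction). Fibroblast markers, a list of 11 tested genes with Dcn the most abundant, gave these values: 10 of 11 had a negative log2 fold change, beside 51.5% of all genes, 1 (Ogn) passed as lower, beside 0.159%, and the list's median was −0.17 against −0.01 over all genes. The summed fibroblast level ran from 845 to 921 CPM in HDM and from 892 to 1238 CPM in saline, highest in saline replicate 1. Without that library the log2 fold change of Serping1 was −0.23 (edgeR adjusted p = 0.0535). The part of fibroblast content in the Serping1 difference was not tested.

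Cd55 (ENSMUSG00000026399, chromosome 1, 130439027 to 130462744, minus strand, 10 merged exons) had 293, 318, 341 and 292 CPM in HDM. Its saline libraries had 344, 377, 394 and 379 CPM. The highest HDM library, replicate 3, lay just under the lowest saline library, replicate 1. The means were 311 ± 23.3 and 373 ± 21.2 CPM, a log2 fold change of −0.26 (SE 0.058, edgeR adjusted p = 0.0445). After a correction for GC content, which is 43.5% in its longest transcript, the value was −0.19 (SE 0.052, adjusted p = 0.201). Cd55 has a paralog, Cd55b, which was at 0.17 ± 0.074 CPM in HDM and 0.23 ± 0.049 CPM in saline. Of all 50-base windows in the longest Cd55 transcript, 10.7% also occur in Cd55b, and 12.5% in any other gene. A single 50-base read from a shared window cannot be told apart by its own sequence, but its mate may lie outside. An annotated gene on the opposite strand, Gm16083, overlaps 102 bases of Cd55 exons and was itself at 1.33 to 2.59 CPM.

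Cd59a (ENSMUSG00000032679, chromosome 2, 104095801 to 104115354, plus strand, 5 merged exons) had 92.6, 84.8, 91.5 and 83.3 CPM in HDM. The saline values were 95.8, 102, 95.7 and 102 CPM. All HDM libraries again lay below the saline ones, and the gap between HDM replicate 1 and saline replicate 3 was smaller than the SD of either group. Means were 88.1 ± 4.67 and 98.9 ± 3.66 CPM, a log2 fold change of −0.17 (SE 0.048, edgeR adjusted p = 0.0955, and −0.10 with 0.403 after the GC correction). The paralog Cd59b was at 1.41 ± 0.19 CPM in HDM and 1.52 ± 0.42 CPM in saline, with overlapping ranges. The transcripts share 3.98% of the 50-base windows of Cd59a.

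Satellite glia, which wrap the neurons, had markers that were lower beside all 3 regulators. The summed level of the 9 listed genes was 1192 to 1339 CPM in HDM and 1391 to 1483 CPM in saline, without overlap, with 7 of 9 negative, a median log2 fold change of −0.18 and 1 of 9 called as lower. Of all genes tested 0.159% were called lower, 4.39% had ranges that did not overlap with HDM lower, and 51.5% were negative. Myelinating Schwann cell markers summed to 2727 to 3009 CPM in HDM and 2853 to 3484 CPM in saline, with overlapping ranges, 10 of 11 negative, a median of −0.17 and 2 of 11 called as lower (Pmp22 and Ugt8a), beside the same shares of all genes. Sensory neuron markers summed to 7532 to 8013 CPM in HDM and 7226 to 7692 CPM in saline (5 of 12 negative, median 0.05). The part of these cell types in the differences of Serping1, Cd55 and Cd59a was not tested.

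**Figure D2:**
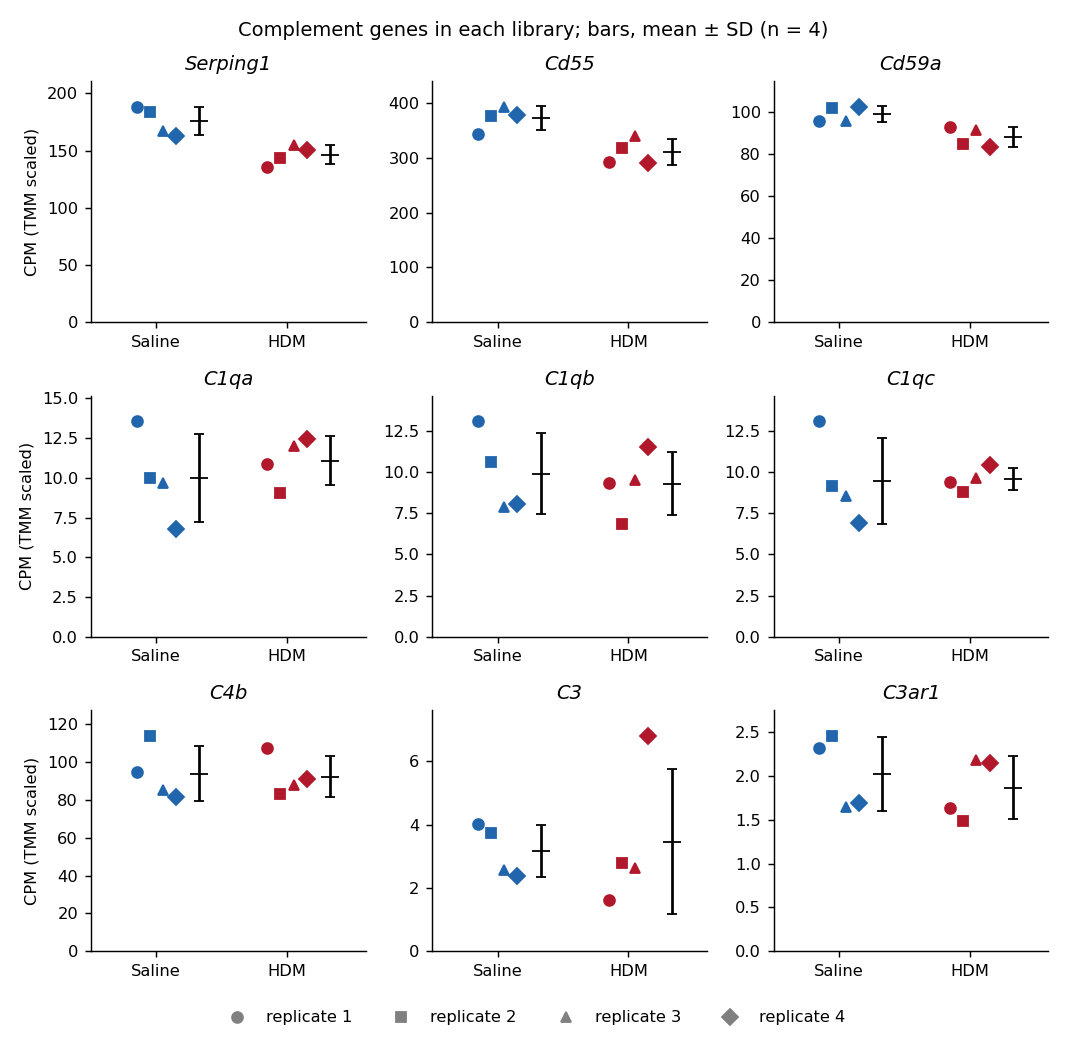
CPM of each of the 9 genes in every library (vertical axes start at 0), saline in blue and HDM in red, with a symbol for each replicate and the mean ± SD (n = 4) beside each group. In the top row all HDM points lie below all saline points, and in the other 6 panels the groups overlap.

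The sequences just upstream of the annotated starts are shown for Cd55 and Cd59a, the lower regulators with an entry in the RefSeq promoter table, where 6 of the 9 genes matched. Each is 5′ to 3′ on the gene's strand (GRCm38.p6, 250 bases), and capitals mark matches to the motifs searched.
Cd55 chr1:130462745-130462994, minus strand: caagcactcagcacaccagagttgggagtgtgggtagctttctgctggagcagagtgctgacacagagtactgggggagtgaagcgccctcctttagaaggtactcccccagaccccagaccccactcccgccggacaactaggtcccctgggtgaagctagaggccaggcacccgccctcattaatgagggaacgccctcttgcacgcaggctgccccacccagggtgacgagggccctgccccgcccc
Cd59a chr2:104095551-104095800, plus strand: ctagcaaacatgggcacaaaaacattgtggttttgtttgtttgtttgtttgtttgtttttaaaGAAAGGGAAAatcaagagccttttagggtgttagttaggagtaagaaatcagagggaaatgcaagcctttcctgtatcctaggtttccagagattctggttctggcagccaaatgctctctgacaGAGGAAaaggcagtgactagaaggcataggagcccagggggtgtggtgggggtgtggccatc
The windows differed in base composition, with 64.0% G and C for Cd55 and 44.8% for Cd59a. Motifs were searched on both strands by their letters. GAGGAA is the core of the site of PU.1, a transcription factor of macrophages. TTCNNNGAA is the GAS element bound by STAT factors, TTGCNNNAA a C/EBP site, and TATAAA the TATA box. The ISRE-like motif, as in interferon-stimulated genes, was the 4 letters GAAA repeated after a gap of 2 bases. The Cd55 window held none of the 5. The Cd59a window held the ISRE-like motif at −187 and GAGGAA at −62 from the start, which 3.04% and 23.1% of 27025 promoter windows of the same length hold. A match is a run of letters and was not tested for binding.

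The C1q genes lie together on chromosome 4, all on the minus strand. C1qa (ENSMUSG00000036887) spans 136895917 to 136898803, C1qc (ENSMUSG00000036896) 136889804 to 136893065 and C1qb (ENSMUSG00000036905) 136880129 to 136886187. For C1qa the HDM libraries held 10.9, 9.02, 12 and 12.5 CPM and the saline libraries 13.6, 9.98, 9.68 and 6.75 CPM. Both the highest and the lowest library were saline ones, replicates 1 and 4. For C1qb the values were 9.33, 6.82, 9.50 and 11.5 CPM after HDM against 13.1, 10.6, 7.87 and 8.05 CPM. For C1qc they were 9.42, 8.80, 9.62 and 10.4 CPM after HDM against 13.1, 9.18, 8.55 and 6.91 CPM. Groups overlapped for each chain, and each chain was lower in HDM in 2 of 4 batches. The log2 fold changes were 0.15 (SE 0.17) for C1qa, −0.09 (SE 0.17) for C1qb and 0.02 (SE 0.15) for C1qc, all within the spread between libraries, with edgeR adjusted p of 0.668, 0.828 and 0.953. Single libraries moved these values: without saline replicate 1 they were 0.33, 0.07 and 0.21, and without saline replicate 4 they were 0.00, −0.18 and −0.10.

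The proportions of the chains overlapped between groups. Of the summed C1q level per kb, C1qa made up 44.2% ± 1.21 in HDM and 40.6% ± 2.99 in saline (SD, n = 4 each). The C1qb share was 35.1% ± 2.40 and 38.8% ± 3.41, and that of C1qc 20.7% ± 1.83 and 20.7% ± 0.70. Macrophage markers varied in the same libraries. The 16 listed genes, all tested and led by Lyz2, Csf1r and Mrc1, summed to 97.7 to 125 CPM in HDM and 95.6 to 164 CPM in saline, highest in saline replicate 1 and lowest in saline replicate 4, as for C1qa and C1qc. Of these markers 13 of 16 had a negative log2 fold change (median −0.20), and the part of macrophage content in the C1q levels was not tested.

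Upstream sequences are shown for C1qb and C1qc, the C1q genes with an entry in the RefSeq promoter table. For C1qc the GENCODE transcript starts 151 bases upstream of the RefSeq start, so only the 99 bases before both starts are printed.
C1qb chr4:136886201-136886450, minus strand: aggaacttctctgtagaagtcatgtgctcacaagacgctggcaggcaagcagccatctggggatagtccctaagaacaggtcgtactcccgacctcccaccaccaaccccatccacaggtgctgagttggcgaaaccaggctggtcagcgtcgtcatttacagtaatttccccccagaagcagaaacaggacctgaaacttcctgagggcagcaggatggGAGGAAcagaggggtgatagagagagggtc
C1qc chr4:136893066-136893164, minus strand: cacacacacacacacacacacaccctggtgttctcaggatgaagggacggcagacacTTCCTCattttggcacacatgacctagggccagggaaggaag
Each window holds the letters GAGGAA once, at −30 from the RefSeq start in C1qb and, on the opposite strand, at −193 in C1qc, beside 23.1% of all windows. Of the windows not printed, that of C3 held none of the 5 motifs as spelled. It does hold TTGCGAAA, a C/EBP-like run with the shorter spacing that was not searched. The C3ar1 window held TATAAA at −235, a motif in 13.0% of windows. No measurement of binding was made here.

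C4b (ENSMUSG00000073418, chromosome 17, 34728380 to 34743882, minus strand), whose product is cleaved by C1s, had 107, 83.0, 87.7 and 91.2 CPM in HDM. Its saline libraries had 94.8, 114, 85.1 and 81.3 CPM. The groups overlapped throughout, with means of 92.3 ± 10.6 and 93.7 ± 14.5 CPM and a log2 fold change of −0.02 (SE 0.098, edgeR adjusted p = 0.929). The sign turned with the library left out, from −0.10 without HDM replicate 1 to 0.08 without saline replicate 2. Its paralog C4a holds 35.2% of the 50-base windows of C4b and was at 1.34 ± 0.20 CPM in HDM and 1.05 ± 0.40 CPM in saline, so the split of reads between these copies is uncertain.

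C3 (ENSMUSG00000024164, chromosome 17, 57203970 to 57228136, minus strand) had 1.63, 2.78, 2.62 and 6.80 CPM after HDM, with 4.01, 3.73, 2.57 and 2.37 CPM in the saline libraries. HDM replicate 4, the library with the highest sympathetic markers, stood above all others, while HDM replicate 1 was the lowest. Saline replicate 1, with the lowest sympathetic markers, had the highest C3 of the saline libraries. The part of sympathetic cells in the C3 level was not tested. The log2 fold change was 0.14 (SE 0.34, edgeR adjusted p = 0.871), and −0.43 (SE 0.24, adjusted p = 0.439) without HDM replicate 4. No direction can be given for C3. C3ar1 (ENSMUSG00000040552, chromosome 6, 122847138 to 122856161, minus strand), the receptor of the C3a fragment, had 1.63, 1.49, 2.19 and 2.15 CPM after HDM, with 2.32, 2.45, 1.64 and 1.69 CPM in the saline libraries. Its groups overlapped, and its log2 fold change of −0.12 (SE 0.20, edgeR adjusted p = 0.793) lay within the spread.

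A wider list of 52 further complement genes gave the setting of these 9. It was set by role, but with earlier results of these data known. Of the 52, 34 passed the filter on low counts. Of these, 0 of 34 had an adjusted p under 0.05 in edgeR with or without the replicate block, in DESeq2 or in limma-voom. At an unadjusted p under 0.05 there were 4 in edgeR, 6 with the block, 2 in DESeq2 and 4 in limma-voom. In the reported fit 1.38% of all genes were called, so 0 of 34 is near that share and sets no contrast with the 9. Signs were split, with 18 negative and 16 positive and a median log2 fold change of −0.01, against −0.01 over all genes. The smallest adjusted p was 0.139, for C1qbp, which encodes a mitochondrial protein that binds C1q (41.9 ± 3.00 CPM in HDM, 37.3 ± 0.69 CPM in saline, log2 fold change 0.17, higher in 4 of 4 batches).

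In the classical route the protease genes C1s1 and C1ra had log2 fold changes of −0.01 and −0.02, and C2 had −0.34 (SE 0.23). Exons of C1s1 and C2 overlap annotated genes on the opposite strand, and those of C2 also a gene on its own strand. Among genes of the lectin route, Colec12, a scavenger collectin, had −0.38, Masp1, a protease, 0.05 and Mbl2, a mannose-binding lectin, −0.21. Cfp, which encodes properdin, the stabiliser of the alternative route's enzyme, was the highest gene of its list at 7.26 ± 0.68 CPM per kb, with a log2 fold change of −0.11. Cfd, the protease factor D, had 0.36 (SE 0.51), and Cfb was too low to test, with 0.098 ± 0.069 CPM in HDM and 0.059 ± 0.031 CPM in saline. Of the 2825 exon bases of Cfb, 2246 also lie in exons of Gm20547 on the same strand. How reads there were counted is not known, so the level of Cfb is uncertain.

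Terminal components were low, and 3 of 7 could be tested. Hc, the mouse C5 gene, had −0.81 (SE 0.32, edgeR adjusted p = 0.198), C8g −0.65 (SE 0.25, adjusted p = 0.191) and C7 0.00 (SE 0.36). C8g ran from 0.46 to 0.79 CPM in HDM and from 0.88 to 1.22 CPM in saline, without overlap. These SEs compare with 0.048 to 0.058 for Serping1, Cd55 and Cd59a. C8a, like Mbl1 of the lectin route, was at 0 counts in all 8 libraries, where 3 counts would be 0.096 to 0.125 CPM. Among receptors, Cd93 had 0.02 and Itgb2, the shared chain of complement receptors 3 and 4, −0.30 (SE 0.28).

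Other regulators were mixed. Clu, which encodes clusterin, a chaperone that binds terminal complexes, had the highest level of all 61 complement genes, 117 ± 5.52 CPM per kb, and a log2 fold change of 0.05 (SE 0.049). Cr1l, the rodent membrane regulator Crry, had −0.11, Susd4 −0.03 and Csmd1 −0.12. Vtn, the gene of vitronectin, had 72.3 CPM in saline replicate 1 and 9.41 to 29.8 CPM in the other 7 libraries, a log2 fold change of −0.66 (SE 0.45). In that same library markers of several lists were highest, among them fibroblast, macrophage, endothelial, mural (vessel wall), myelinating Schwann and red blood cell markers. Of the 7 other membrane regulators tested 5 had a negative value, with a median of −0.07.

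**Figure D3:**
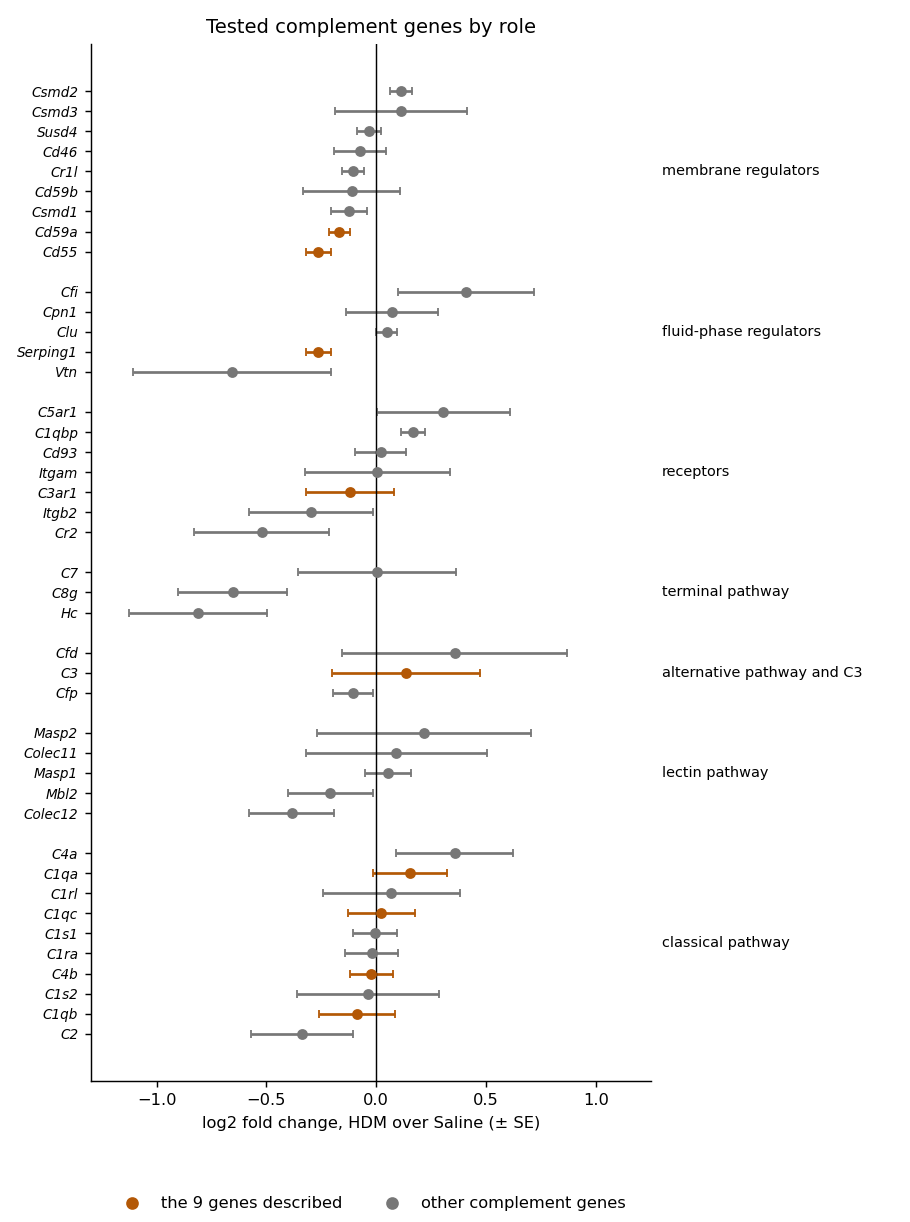
Log2 fold change of HDM over saline with its SE for the complement genes tested and reported here, grouped by role, with the 9 genes described in orange. Serping1, Cd55 and Cd59a have narrow error bars below 0, from −0.26 to −0.17, while C3, C4b, C3ar1 and the C1q chains have bars that reach or cross 0.

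Variation within groups, which does not use the difference between HDM and saline, was compared between each of the 9 genes and the mean log2 CPM of 6 marker lists, after removing group means (8 libraries, 54 relations, exact permutation within groups, 2-sided, 576 assignments). None of the 54 passed after Benjamini-Hochberg adjustment, and the smallest adjusted p was 0.0937. That is the value a single relation gets at the smallest p that 576 assignments allow. A single relation could thus not pass alone, however strong. Where batch means were removed as well, the 2 values of each batch are mirror images. Such r, here and below, rest on 4 values and not on 8, so large ones arise more easily. Serping1 followed fibroblast markers most closely (r = 0.91, exact permutation p = 0.0156, adjusted p = 0.174, rho = 0.91, p = 0.0174, adjusted p = 0.161), with r = 0.93 within HDM, 0.94 within saline and 0.96 without the 2 libraries farthest on the marker axis, and 0.996 with batch means removed as well. With macrophage markers the C1q chains gave these values: C1qa (r = 0.88, exact permutation p = 0.0191, rho = 0.91, p = 0.0104), C1qb (r = 0.85, p = 0.0122, rho = 0.81, p = 0.0278) and C1qc (r = 0.90, p = 0.0122, rho = 0.95, p = 0.00347). Adjusted p was 0.174 for each of these r, and 0.161, 0.174 and 0.0937 for the rho. Without saline replicates 1 and 4, the libraries farthest out, r was 0.74, 0.76 and 0.69, and with batch means removed 0.84, 0.90 and 0.85. C1qb went as closely with endothelial markers (r = 0.85, exact permutation p = 0.00174, which 576 assignments cannot go below, adjusted p = 0.0937, rho = 0.95, p = 0.00347, adjusted p = 0.0937, r = 0.88 without the 2 farthest and 0.81 with batch means removed), so these relations do not single out 1 cell type.

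Other lists gave values as large. C1qa with sensory neuron markers had r = −0.91 (exact permutation p = 0.0226, adjusted p = 0.174, rho = −0.74, p = 0.0694, adjusted p = 0.192), −0.63 without the 2 farthest libraries and −0.98 with batch means removed. C1qb with fibroblast markers had r = 0.86 (exact permutation p = 0.0208, adjusted p = 0.174, rho = 0.79, p = 0.0451, adjusted p = 0.174), with 0.74 and 0.89 under the same changes. C1qc with fibroblast markers had r = 0.85 (exact permutation p = 0.0260, adjusted p = 0.176, rho = 0.86, p = 0.0208, adjusted p = 0.161), with 0.77 and 0.87. C3ar1, too, was highest with fibroblast markers, at r = 0.87 (exact permutation p = 0.0451, adjusted p = 0.194, rho = 0.64, p = 0.118, adjusted p = 0.252), with 0.95 and 0.91. Serping1 with macrophage markers had r = 0.75 (exact permutation p = 0.0504, adjusted p = 0.194, rho = 0.79, p = 0.0451, adjusted p = 0.174), with 0.56 and 0.994, so with batch means removed it was near the fibroblast value.

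For Cd55, r with the 6 lists ran from −0.57 to 0.16, and for Cd59a from −0.15 to 0.26. Their r with sensory neuron markers was 0.16 and 0.05 (exact permutation p = 0.714 and 0.887, adjusted p = 0.820 and 0.948, rho = 0.19 and −0.33 with p = 0.675 and 0.406, adjusted p = 0.793 and 0.522), and −0.41 and −0.74 without the 2 farthest libraries and 0.68 and 0.30 with batch means removed. Between regulators r was −0.06 for Serping1 and Cd55, −0.23 for Serping1 and Cd59a and 0.27 for Cd55 and Cd59a (exact permutation p = 0.885, 0.576 and 0.609, adjusted p = 0.911, 0.716 and 0.724 over 36 pairs of the 9 genes), and with batch means removed −0.42, −0.27 and 0.74. In the same order rho was −0.19, −0.17 and 0.17 (exact permutation p = 0.684, 0.729 and 0.667, adjusted p = 0.746, 0.772 and 0.746), and r without the 2 farthest libraries −0.13, 0.10 and 0.40. Between C1q chains r was 0.84 for C1qa and C1qb, 0.95 for C1qa and C1qc and 0.82 for C1qb and C1qc (exact permutation p = 0.0104, 0.0104 and 0.00521, adjusted p = 0.125 for each), and 0.94, 0.97 and 0.85 with batch means removed. Here rho was 0.86, 0.98 and 0.91 (exact permutation p = 0.0208, 0.00347 and 0.0104, adjusted p = 0.188, 0.125 and 0.188), and r without the 2 farthest libraries 0.69, 0.82 and 0.96. No pair of the 36 passed after adjustment.

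**Figure D4:**
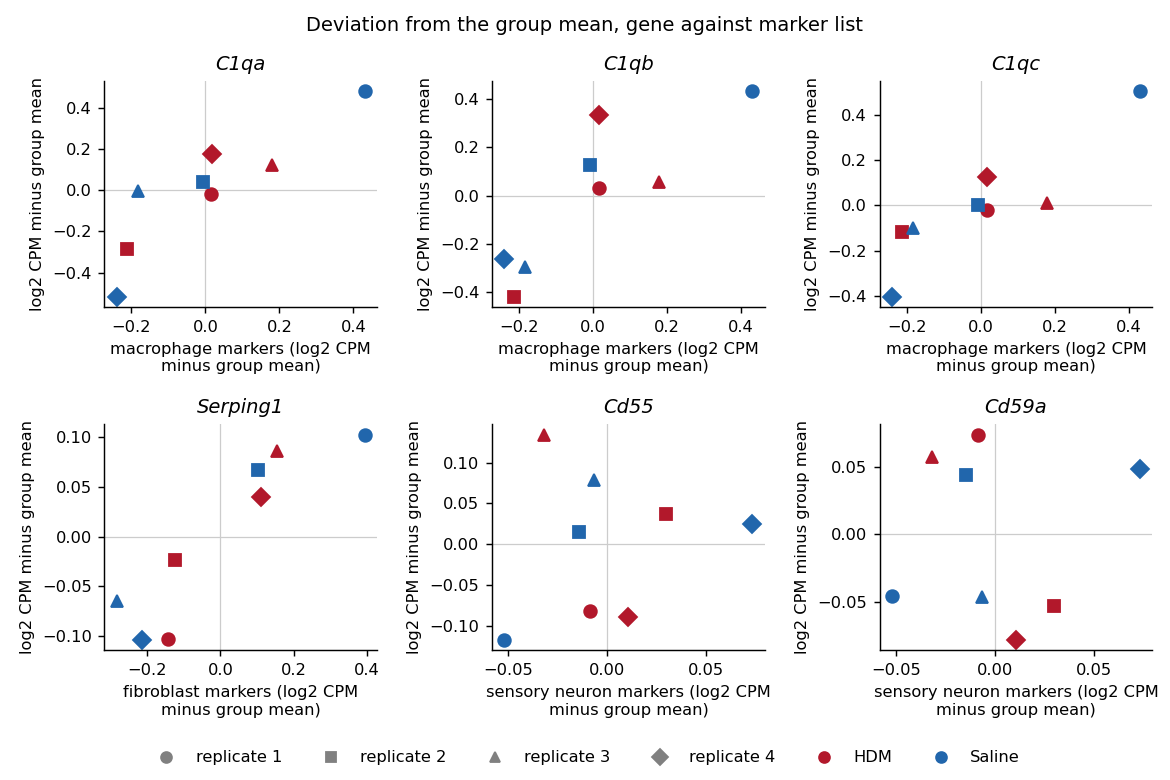
Log2 CPM of a gene (vertical) against the mean log2 CPM of a marker list (horizontal), both minus the group mean, for the 4 HDM (red) and 4 saline (blue) libraries, with a symbol for each replicate. Points for the C1q chains and Serping1 rise from lower left to upper right (r from 0.85 to 0.91), and those for Cd55 and Cd59a scatter (r = 0.16 and 0.05).

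The genes whose within-group pattern was most like that of a given gene were taken from 12835 tested genes with a mean log2 CPM of at least 1 (12836 for C3ar1), by Pearson r over the 8 libraries. For Serping1 they were Hspg2, which encodes the basement membrane proteoglycan perlecan (r = 0.99), Col1a2, a chain of type I collagen in the fibroblast list (0.98), and Bgn, the proteoglycan biglycan (0.98). For Cd55 they were Plxnc1, a semaphorin receptor (r = 0.99), Kcnd3, a potassium channel (0.985), and Csnk2a2, a kinase subunit (0.98). For Cd59a they were Map10, Pxk and Tcp11l2 (r from 0.95 to 0.97). C1qa was most like Gxylt2, Anxa1 and Nupr1 (0.99 each), C1qb like Gprc5b, Asb2 and BC034090 (0.97 to 0.99) and C1qc like Eno3, Inppl1 and Kif1c (0.98 to 0.99). C4b was most like Acd, Cyp2d22 and Cxcl10, C3 like Glmp, Nlgn2 and Ctnnbip1, and C3ar1 like Miga2, Zfp57 and Mafk, all between 0.97 and 0.99. These are the highest of many values over 8 libraries and describe these libraries alone.

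**Figure D5:**
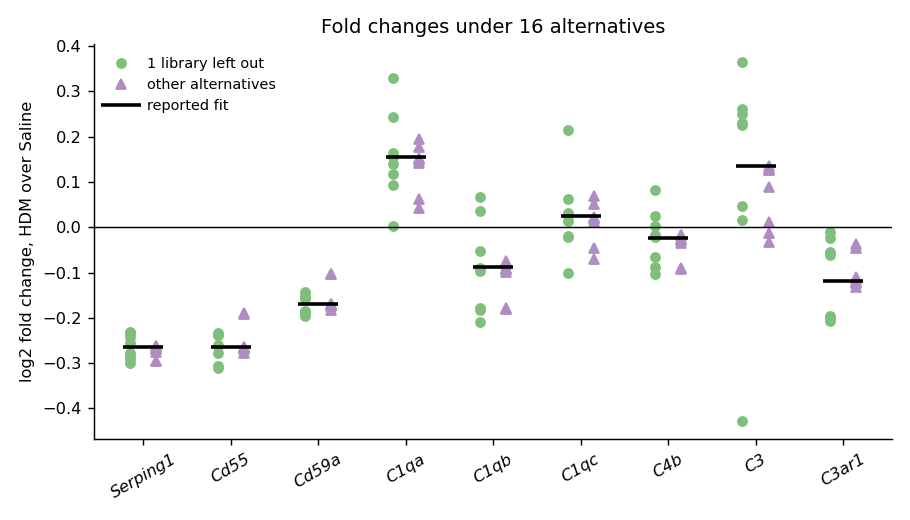
Log2 fold change of each of the 9 genes in the reported fit (black bar), with 1 library left out (8 green points) and under 8 other ways of processing (purple triangles). Serping1, Cd55, Cd59a and C3ar1 stay below 0 in all 16, C1qa stays above 0, and C1qb, C1qc, C4b and C3 cross 0.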

How the data were processed

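RNA was sequenced from 8 pools of mouse vagal ganglia, 4 HDM and 4 saline, with paired reads of 50 bp, per the labels' protocols. The authors deposited counts per gene, made with featureCounts on GRCm38 (mm10) per the submitters' processing notes. No aligner, version or strand setting is named in those notes or labels. Reads of overlapping opposite-strand genes may therefore have been counted together or left out. Symbols, spans and transcript sequences came from GENCODE M21 (GRCm38). Gene lengths for CPM per kb are those of the deposited table.

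Low genes were removed by filterByExpr (edgeR 4.0.16, run in R 4.3.3) before TMM scaling and testing by its quasi-likelihood F-test (2-sided, group as the only term, Benjamini-Hochberg over all genes tested). P-values measure the spread between these pools. The 9 genes, the complement list and the marker lists were chosen with earlier results of these data known. Named genes were the 9, their paralogs, the highest 3 of the other complement genes in each role with any past the threshold, and the 3 most alike genes of each, and some genes that the rule names are not reported here. Motifs and upstream windows were chosen after the values were seen.

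Batch labels pair the libraries. Deviations of same-numbered libraries correlated by −0.05 to 0.04, and 0 of 8 correlated best with its own number. In simulated HDM and saline counts for 17413 genes, the group fit recovered 18.0% of genes changed by a log2 fold of 0.25, 67.3% at 0.5 and 83.7% at 1, with 11 false calls. The simulated counts were drawn independently for each gene, without GC, batch or cell content differences between libraries. Recovery and false calls in the real data may therefore differ. Alternatives were other size factors and filters, DESeq2 1.42.0, limma-voom (limma 3.58.1), the replicate block, a GC correction (spline with 4 degrees of freedom on transcript GC), both together, and leaving out each library.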

Additional observations from a re-analysis of the deposited data

How the results depend on the processing

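The count of all genes called, 244 in the reported fit, was 722 without a filter, 843 in DESeq2, 713 with the replicate block, 709 at a threshold of 0.10, 0 after the GC correction (2101 at an unadjusted p under 0.05) and 40 with block and GC correction together, and it ran from 0 to 376 when 1 library was left out, at 0 without HDM replicate 1 or 2 or saline replicate 3 (2449, 2452 and 2373 at an unadjusted p under 0.05). Of the 9 complement genes, 2 were called in the reported fit and 0 after the GC correction or with block and GC correction (3 and 2 at an unadjusted p under 0.05), and 0 to 2 with 1 library left out. Cd59a joined them without a filter (adjusted p = 0.0468), in DESeq2 (0.0267) and at a threshold of 0.10. Neither Serping1 nor Cd55 passed in edgeR without HDM replicate 1, 2 or 4 or saline replicate 2 or 3, where their adjusted p ran from 0.0836 to 0.165, and 1 of them passed without saline replicate 1 (Cd55) or 4 (Serping1). After the GC correction the adjusted p of Serping1 was 0.0736. Over the 16 alternatives the log2 fold change ran from −0.30 to −0.23 for Serping1, from −0.31 to −0.19 for Cd55 and from −0.195 to −0.10 for Cd59a. Of the 34 other complement genes 0 were called, and 2 of 50 without a filter, among them Fcna (adjusted p = 0.0393, 42 counts in all). The replicate block changed no call among the 9. Of 54 marker relations 0 passed by r or by rho, where a single relation could not pass alone. The cause of these shifts was not tested.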
